A study of Arabidopsis thaliana with 12 samples.

Results

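Aldehyde dehydrogenase (ALDH) genes were followed in whole Arabidopsis thaliana seedlings with a T-DNA mutation in 1 of 3 genes for methyl-CpG-binding domain proteins. Members were the probe sets assigned to a single gene whose symbol is ALDH followed by a digit. There were 8 of them among 22746 probe sets tested and 13356 genes with a probe set of their own, 1 for each of ALDH2C4 (AT3G24503), ALDH3F1 (AT4G36250), ALDH6B2 (AT2G14170), ALDH7B4 (AT1G54100), ALDH10A8 (AT1G74920), ALDH10A9 (AT3G48170), ALDH11A3 (AT2G24270) and ALDH22A1 (AT3G66658). A list of 16 Arabidopsis loci of the superfamily held the same 8. The other 8 loci, ALDH2B4, ALDH2B7, ALDH3H1, ALDH3I1, ALDH5F1, ALDH12A1, P5CS1 and P5CS2, had no probe set of their own in the assignment table and were not analysed here.

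Aldehyde dehydrogenases use NAD or NADP to oxidise reactive aldehydes to carboxylic acids. In plants they take part in amino acid breakdown, in the making of phenolic acids and osmoprotectants, in supplying NADPH, and in clearing the aldehydes that lipid peroxidation leaves behind under drought and salt. Family members sit in the cytosol, plastids, mitochondria and peroxisomes, and several are known as stress-induced genes.

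The study compared 4 genotypes of the Col-0 ecotype, each as 3 biological replicates of seedlings grown for 10 days on MS medium: wild type and T-DNA mutants in MBD4 (mbd4), MBD6 (mbd6) and MBD11 (mbd11). No source used here gives the mutant alleles, the number of independent lines or the seedlings pooled per replicate. RNA of whole seedlings was labelled from the poly(A) tail and hybridised to Affymetrix arrays, and the values are deposited log2 intensities, so a change of 1 is 2-fold. Each change below is mutant minus wild type with its standard error (SE) from limma, n = 3 in each group, and adjusted p covers all 22746 probe sets. A change was called at an adjusted p under 0.05. In RNA of whole seedlings, fewer cells of a type and less RNA per cell cannot be told apart. No probe set was assigned to MBD4, MBD6 or MBD11 alone, so the loss of the targeted transcripts was not checked.

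The 3 mbd11 arrays stood apart from the other 9. They correlated with those at 0.900 to 0.960, while the lowest correlation among the 9 was 0.979, and the median within-group SD was 0.35 in mbd11 against 0.11 to 0.13 in the other genotypes. Their interquartile ranges were 3.63, 2.83 and 3.58, against 3.83 to 3.94 elsewhere. A common measure of RNA integrity and labelling is how much brighter a transcript reads at its 3' end than at its 5' end, here averaged over actin, GAPDH and ubiquitin. It was 2.42 to 2.88 in mbd11. The wild-type arrays gave 1.75 to 2.04, the mbd6 arrays 1.85 to 1.93 and the mbd4 arrays 1.57, 1.70 and, for replicate 3, 2.69. The part of these differences in the results was not tested beyond the values given below. Of 8 green-tissue markers, the 4 measured were bright in wild type, from 11.79 for SBPASE to 13.74 for RCA, while the root-hair gene EXPA7, the 1 measured of 10 root markers, averaged 5.76 (SD 0.18). No marker on a list of 4 dry-seed genes was measured.

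Most of the measured family fell in mbd11, and in mbd4 and mbd6 no member passed the test. In mbd11 6 of the 8 members were lower (limma, adjusted p = 0.000401 to 0.00732), where 19.7% of all probe sets were called lower. The same 6 had no mbd11 value inside the wild-type range (22.7% of all probe sets). Of the 8, 6 lay in the brightest of 10 classes of wild-type level, where 48.7% were called lower and the median change was -0.44. With arrays weighted by genotype 3 of the 8 were called lower, beside 2945 of all 22746 probe sets. Changes of all 8 were below 0, from -1.21 to -0.40, with a median of -0.60 beside 0.12 over all probe sets. Centring the arrays on their medians moved the latter to 0.22 and left 6 members called lower, beside 3938 of all 22746 probe sets. All 8 changes were below 0 in each of 21 alternatives, but many of these could not move the change itself. Genotype weights, the intensity trend, the replicate block and leaving out mbd4 or mbd6 arrays altered only its error or adjusted p. In mbd4 0 of 8 were called by limma beside 2.3% of all probe sets in either direction. The count at an unadjusted p under 0.05 was 2, ALDH7B4 and ALDH6B2, beside 2504 of all 22746 probe sets. In mbd6 0 of 8 were called beside 6.91%, with 1, ALDH7B4, at an unadjusted p under 0.05 beside 3762 of all probe sets. Median changes of the 8 were 0.07 in mbd4 and 0.11 in mbd6, beside -0.03 over all probe sets in each. The 3 comparisons share the wild-type arrays.

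**Figure D1:**
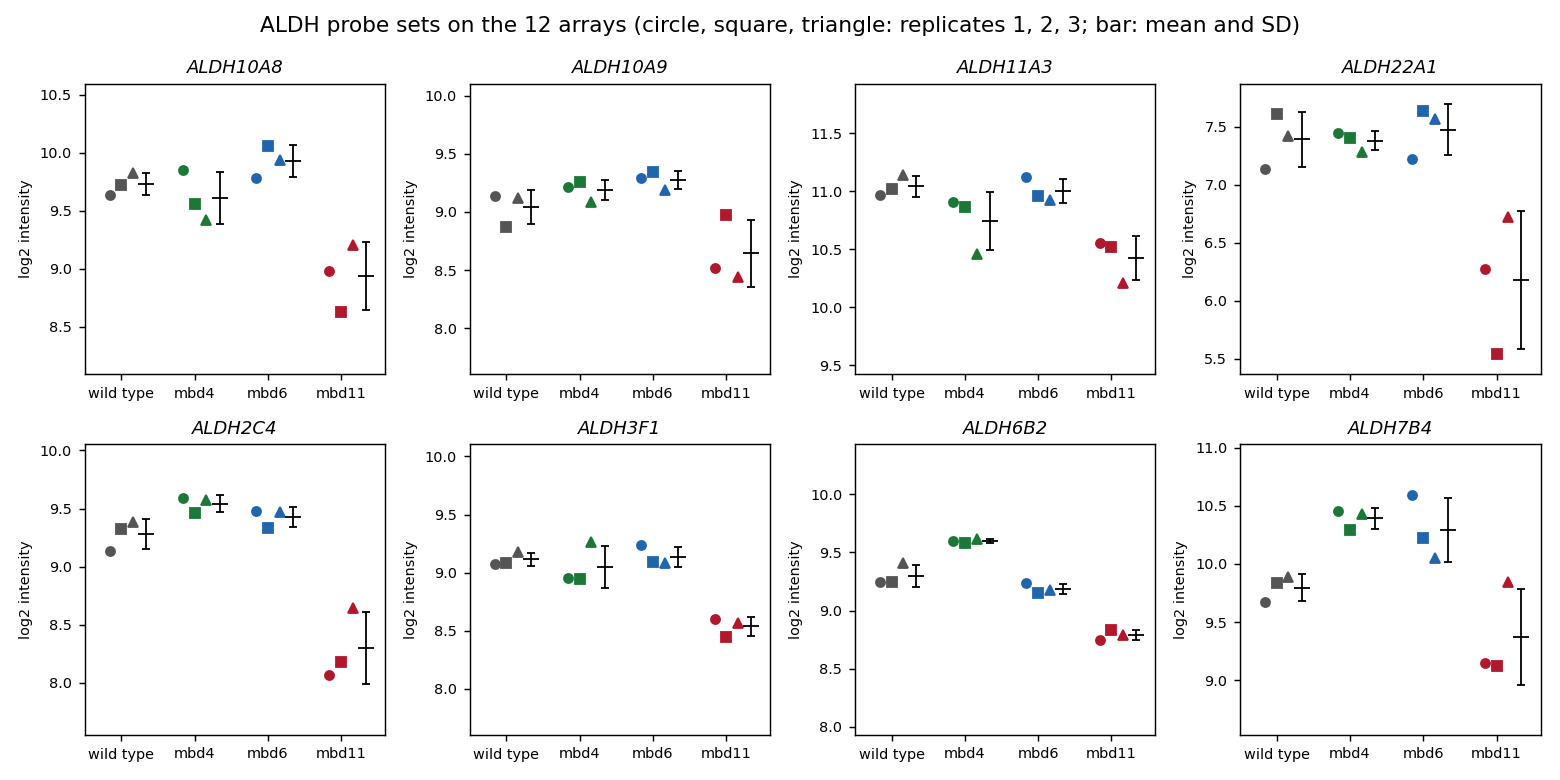
Deposited log2 intensities (y axis, the same span of 2.5 log2 units in every panel) of the 8 ALDH probe sets in the 4 genotypes (x axis). Circles, squares and triangles are replicates 1, 2 and 3, and black bars the mean and SD; the red mbd11 points lie below all wild-type points in 6 panels and overlap them for ALDH10A9 and ALDH7B4.

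ALDH2C4, the cytosolic enzyme that turns sinapaldehyde and coniferaldehyde into sinapic and ferulic acid, had the smallest p-value among the members in mbd11. Its wild-type arrays read 9.14, 9.33 and 9.39 and its mbd11 arrays 8.07, 8.18 and 8.65. The groups did not overlap, and replicate 3 of mbd11 lay nearest to wild type. The fall was 0.98 on the log2 scale (SE 0.16; adjusted p = 0.000401), or 1.98-fold. In mbd4 the arrays read 9.59, 9.46 and 9.57, all above wild type, for a change of 0.26 that did not pass (adjusted p = 0.672). In mbd6 they read 9.48, 9.33 and 9.47 and overlapped wild type (0.14, adjusted p = 0.837).

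ALDH22A1, the single member of a family found in plants, showed the largest change and the widest spread. Wild-type arrays read 7.14, 7.61 and 7.42, and mbd11 arrays 6.28, 5.54 and 6.72. The mbd11 values were all lower but had an SD of 0.59, and the lowest belonged to replicate 2, the array with the narrowest distribution. The change was -1.21 (SE 0.25; adjusted p = 0.00219), a 2.31-fold fall, and -0.89 without that array (adjusted p = 0.0129 at most when single arrays were left out). In mbd4 the values were 7.44, 7.41 and 7.29 and in mbd6 7.22, 7.64 and 7.56, inside or beside the wild-type range. The changes there, -0.01 and 0.08, were smaller than their SE of 0.25.

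ALDH10A8 and ALDH10A9 encode the betaine aldehyde dehydrogenase-like pair, aminoaldehyde dehydrogenases placed in plastids and peroxisomes. ALDH10A8 read 9.64, 9.72 and 9.83 in wild type and 8.98, 8.63 and 9.20 in mbd11, without overlap. It fell by 0.79 on the log2 scale (SE 0.17; adjusted p = 0.00287). In mbd4 its arrays spread from 9.42 to 9.85 around the wild-type values, and in mbd6 from 9.79 to 10.06, with changes of -0.12 and 0.20 that did not pass (adjusted p = 0.970 and 0.732).

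ALDH10A9 did not pass in any mutant in the main fit. Its wild-type values were 9.13, 8.87 and 9.12, and the mbd11 values 8.52, 8.97 and 8.44. Replicate 2 of mbd11 lay inside the wild-type range and the other two below it. The change in mbd11 was -0.40 (SE 0.16, adjusted p = 0.0562), and without mbd11 replicate 2 it was -0.56 (adjusted p = 0.00228). The same change of -0.40 passed with an intensity trend (adjusted p = 0.0408) and with a mean of at least 5 (0.0443). With quantile normalization it was -0.22 (adjusted p = 0.386) and with the 3' minus 5' covariate -0.21 (0.431). In mbd6 the arrays read 9.29, 9.34 and 9.19, all above wild type, for a change of 0.23 (adjusted p = 0.587). In mbd4 they read 9.22, 9.25 and 9.09, for a change of 0.14 (adjusted p = 0.922).

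ALDH6B2, the mitochondrial methylmalonate-semialdehyde dehydrogenase of valine breakdown, was above wild type in mbd4 and below it in mbd11, with replicates closer together than those of other members in mbd4, mbd6 and mbd11. Wild-type arrays read 9.24, 9.24 and 9.41, mbd4 arrays 9.60, 9.58 and 9.61, mbd6 arrays 9.23, 9.15 and 9.17, and mbd11 arrays 8.75, 8.83 and 8.79. The groups did not overlap, with mbd4 above wild type and mbd6 and then mbd11 below it. In mbd11 it fell by 0.51 on the log2 scale (SE 0.11; adjusted p = 0.00362). That call was lost with quantile normalization of the arrays (-0.33, adjusted p = 0.0510), with only the 6 arrays compared (0.0501) and with arrays weighted by genotype (0.0676), where 22.4% and 23.1% of all probe sets were called in the latter pair of fits. In mbd4 the change was 0.30 (SE 0.11, 95% interval 0.06 to 0.54; adjusted p = 0.286). It passed with arrays weighted by genotype (adjusted p = 0.0444) and with a floor of 4 under all values (0.0140), and did not without the mbd11 arrays. The mbd6 change of -0.11 did not pass (adjusted p = 0.806), and ALDH6B2 was the 1 member of 8 whose mbd6 values all lay below wild type (19.6% of all probe sets).

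ALDH7B4, the antiquitin-like member known as a turgor- and stress-responsive gene, was the one with values above wild type in both mbd4 and mbd6. Wild-type arrays read 9.67, 9.84 and 9.88. The mbd4 arrays read 10.46, 10.29 and 10.43, and the mbd6 arrays 10.60, 10.23 and 10.05. All 6 mutant values exceeded the highest wild-type value. No overlap with higher mutant values was seen for 3 of 8 members in mbd4 (12.8% of all probe sets) and 2 of 8 in mbd6 (16.5%).

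The change of ALDH7B4 was 0.60 in mbd4 (SE 0.20, 95% interval 0.16 to 1.03, 1.51-fold) and 0.49 in mbd6 (SE 0.20, 0.06 to 0.93, 1.41-fold), and neither passed over all probe sets (adjusted p = 0.200 and 0.215). In a fit without the mbd11 arrays, whose spread enters the shared error, both passed (adjusted p = 0.0137 and 0.0209). They did so too with only the 6 arrays compared (0.00651 and 0.0253) and with arrays weighted by genotype (0.00863 and 0.00866), and over all alternatives adjusted p ran from 0.00651 to 0.574 in mbd4 and from 0.00866 to 0.657 in mbd6. Without the mbd11 arrays 9.72% of all probe sets were called in mbd4 and 18.1% in mbd6, with only the 6 arrays 8.81% and 19.9%, and with weights 10.5% and 21.5%. In mbd11 the values were 9.15, 9.12 and 9.85, with replicate 3 inside the wild-type range and the others below it. The mbd11 change of -0.42 did not pass (SE 0.20; adjusted p = 0.105), and without mbd11 replicate 3 it was -0.66 (adjusted p = 0.00698). With quantile normalization it was -0.23 (adjusted p = 0.396).

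ALDH11A3 encodes the non-phosphorylating glyceraldehyde-3-phosphate dehydrogenase, a cytosolic source of NADPH. It read 10.97, 11.02 and 11.14 in wild type and 10.55, 10.52 and 10.21 in mbd11, without overlap. The fall was 0.62 on the log2 scale (SE 0.15; adjusted p = 0.00732), and with the 3' minus 5' difference as a covariate the change was -0.30 (adjusted p = 0.177). The call was also lost with arrays weighted by genotype (adjusted p = 0.0850). In mbd4 the arrays read 10.91, 10.87 and 10.46, the 1 member of 8 wholly below wild type there (15.7% of all probe sets), with the lowest in replicate 3, the mbd4 array with the highest 3' minus 5' difference. That change was -0.30 (SE 0.15; adjusted p = 0.542), and in mbd6, at 11.12, 10.96 and 10.93, it was -0.04 (adjusted p = 0.986).

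ALDH3F1, an enzyme of the family that oxidises medium- to long-chain aliphatic aldehydes, read 9.08, 9.09 and 9.18 in wild type. The mbd11 arrays read 8.60, 8.45 and 8.57, below all other arrays. It fell by 0.57 on the log2 scale in mbd11 (SE 0.13; adjusted p = 0.00400), a call lost with arrays weighted by genotype (adjusted p = 0.0684). The mbd4 arrays ran from 8.94 to 9.26 and the mbd6 arrays from 9.08 to 9.24, both overlapping wild type. Changes there were -0.06 and 0.02, with 95% intervals of -0.34 to 0.22 and -0.26 to 0.30.

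**Figure D2:**
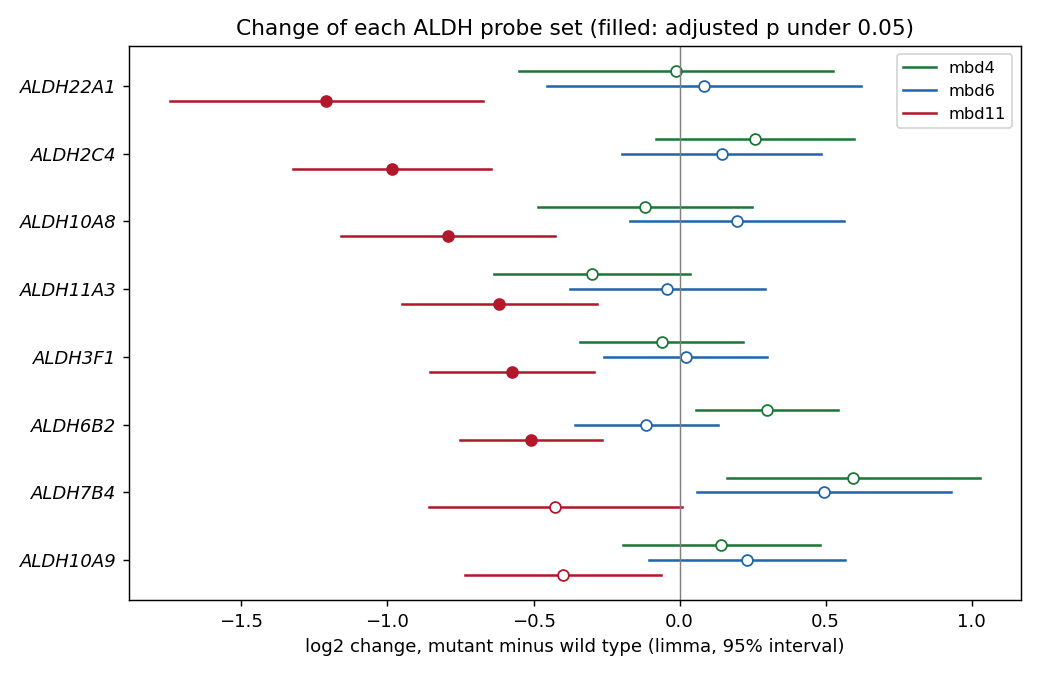
Change of each ALDH probe set (y axis) in mbd4, mbd6 and mbd11 from wild type (x axis, log2 units), as points with 95% intervals from limma; filled points have an adjusted p under 0.05. The 6 filled points are all of mbd11, between -1.21 and -0.51, and ALDH7B4 is the member whose mbd4 and mbd6 intervals both lie above 0.

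The mbd11 changes were read against probe sets of like brightness, because bright probe sets were lower in mbd11 in general. With probe sets split into 10 classes by wild-type level, the median mbd11 change went from 0.42 in the dimmest class to -0.44 in the brightest. Of the 8 members, 6 lay in the brightest class, where 48.7% of 2275 probe sets were called lower. Of these 6, ALDH2C4, ALDH10A8, ALDH11A3, ALDH3F1 and ALDH6B2 were called, and ALDH7B4 was not. The class median was -0.44, and 50.5% of the class had a change as low as that of ALDH7B4, 46.2% as low as ALDH6B2, 42.6% as low as ALDH3F1 and 40.7% as low as ALDH11A3. These 4 members lay near the middle of probe sets as bright as they are.

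ALDH10A8 and ALDH2C4 lay lower in the same class, with 32.4% and 23.9% of its probe sets as low or lower. ALDH10A9, in the ninth class, was close to that class's median of -0.34, with 46.3% as low or lower and 41.1% called lower. ALDH22A1 stood furthest from probe sets of its own level. It was the one member in the seventh class, whose median change was -0.18 and where 28.5% were called lower, and 5.72% of that class had a change of -1.21 or below. Over all 21 alternatives ALDH22A1, ALDH2C4 and ALDH10A8 kept their calls in mbd11, with changes of -1.48 to -0.89, -1.16 to -0.79 and -0.93 to -0.59.

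**Figure D3:**
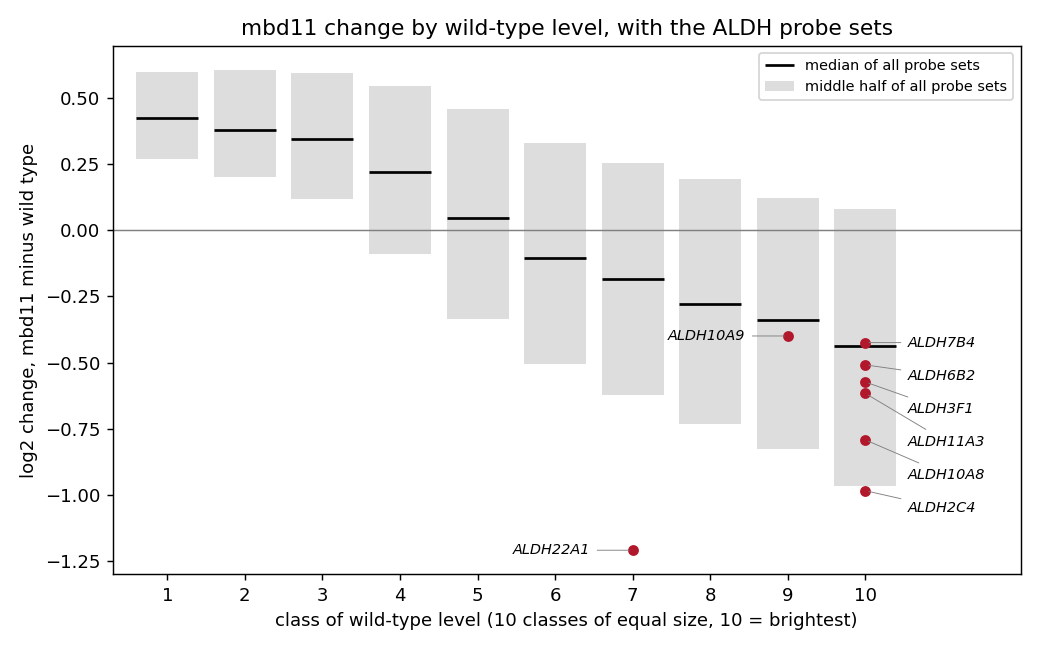
Change in mbd11 (y axis, log2 units) against class of wild-type level (x axis, 10 classes of equal size, 10 the brightest). Grey boxes span the lower to upper quartile and black lines the median of all probe sets in a class, red points are the ALDH probe sets; ALDH22A1, at -1.21 in class 7, lies below its box, ALDH2C4 just below and the other 6 inside theirs.

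Green-tissue genes were lower in mbd11 as well. The 4 measured markers, RCA, PRK, LHCB4.1 and SBPASE, all fell there, by a median of -0.95 (range -1.24 to -0.65), beside 19.7% of all probe sets called lower. All 4 lay in the brightest class, where 48.7% were called lower, and 14.7% (PRK) to 39.7% (LHCB4.1) of that class had a change as low or lower. In mbd6 SBPASE fell by 0.52 on the log2 scale (adjusted p = 0.0117) and the others did not pass, and in mbd4 the 4 changes lay between -0.24 and 0.02. Root-hair gene EXPA7 differed by 0.17 in mbd11 (SE 0.24; adjusted p = 0.572). The part of these tissue markers in the ALDH changes was not tested.

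Comparisons between mutants placed mbd11 below both others. All 8 members were lower in mbd11 than in mbd6 (limma, adjusted p = 0.000163 to 0.0144; 19.9% of all probe sets called lower), and their values did not overlap (22.4% of all probe sets). Against mbd4, 7 were lower (19.8% of all probe sets called lower) and did not overlap (21.2%). ALDH11A3 was the exception at -0.32 (adjusted p = 0.112), and without mbd4 replicate 3 it was -0.46 (adjusted p = 0.0355). ALDH7B4, not called against wild type, differed by -1.02 from mbd4 and by -0.92 from mbd6 (SE 0.20 each; adjusted p = 0.00175 and 0.00327). ALDH2C4 showed the largest gap to mbd4 among the members, -1.24 (SE 0.16; adjusted p = 8.73e-05). These counts depended on the processing. With the 3' minus 5' covariate 5 of 8 were called lower than in mbd6 (15.6% of all probe sets) and 6 lower than in mbd4 (17.3%). With quantile normalization the counts were 6 (17.4%) and 5 (17.2%), and with arrays weighted by genotype 4 (12.4%) and 4 (11.8%).

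The members that lost their calls differed by setting. With arrays weighted by genotype, ALDH6B2 (adjusted p = 0.146), ALDH11A3 (0.107), ALDH3F1 (0.0614) and ALDH10A9 (0.0579) did not pass against mbd6. With the same weights ALDH3F1 (adjusted p = 0.108), ALDH10A9 (0.103) and ALDH10A8 (0.0729) did not pass against mbd4. Against mbd6, ALDH6B2 went from -0.40 to -0.20 with quantile normalization (adjusted p = 0.205) and did not pass with median centring (0.0791), with the covariate (0.0643) or without mbd6 replicate 1 (0.0511). ALDH11A3 went from -0.57 to -0.28 with the covariate (adjusted p = 0.199). ALDH10A9 did not pass against mbd6 with the covariate (adjusted p = 0.0995) or quantile normalization (0.0741). Against mbd4, ALDH10A9 did not pass with quantile normalization (adjusted p = 0.138), the covariate (0.116), median centring (0.0675) or without mbd4 replicate 2 (0.0549), and ALDH3F1 did not with quantile normalization (0.0576).

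Between mbd6 and mbd4 no member passed (limma, 0 of 8, with 2.05% of all probe sets called in either direction and 1 member at an unadjusted p under 0.05, beside 2770 of all probe sets). That 1 was ALDH6B2, with a change of -0.41 (SE 0.11, 95% interval -0.66 to -0.17; adjusted p = 0.0908), with 9.15 to 9.23 in mbd6 and 9.58 to 9.61 in mbd4, wholly below (13.9% of all probe sets). It passed in 5 of 21 alternatives, among them the fit without the mbd11 arrays (adjusted p = 0.0108), and adjusted p ran from 0.00453 to 0.281.

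Ordered by mean, mbd11 was the lowest genotype for every member. The step from mbd11 to the next genotype was called for ALDH2C4, ALDH22A1, ALDH10A8, ALDH3F1 and ALDH6B2, and not for ALDH10A9, ALDH11A3 and ALDH7B4. The next genotype was mbd4 for ALDH10A8, ALDH11A3, ALDH22A1 and ALDH3F1, wild type for ALDH10A9, ALDH2C4 and ALDH7B4, and mbd6 for ALDH6B2. Steps among the upper 3 genotypes did not pass for any member.

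Genes of neighbouring pathways were taken from a list of 37, of which 11 had a probe set of their own. The list was chosen with earlier results of these data known, so its counts and medians are a description and no independent support. In mbd4 2 of the 11 rose and 0 fell (1.53% of all probe sets called higher), with a median change of 0.40 beside -0.03 over all probe sets. Both belong to leucine breakdown, while ALDH6B2 acts in the breakdown of valine, another branched-chain amino acid. MCCA, the biotin-carrying subunit of methylcrotonyl-CoA carboxylase, read 7.40, 7.66 and 7.21 in wild type and 8.98, 8.97 and 9.18 in mbd4. It rose by 1.62 (SE 0.19; adjusted p = 0.000676), or 3.08-fold, with every mbd4 value more than a log2 unit above every wild-type value.

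IVD, isovaleryl-CoA dehydrogenase, which acts just before that carboxylase, read 7.74, 7.62 and 7.52 in wild type and 8.72, 8.91 and 8.82 in mbd4. It rose by 1.19 (SE 0.21; adjusted p = 0.00837). IVD did not pass when wild-type replicate 3 or mbd4 replicate 2 was left out (adjusted p = 0.0547 and 0.05004), and the list then held 1 call, beside 0.818% and 0.884% of all probe sets called higher. MCCB, the second subunit of the carboxylase, differed by 0.19 in mbd4 (adjusted p = 0.808). AT4G20930, listed with branched-chain amino acid breakdown, differed by 0.45 in mbd4 (adjusted p = 0.676) and by 0.91 in mbd6 (adjusted p = 0.0698). Against mbd4, MCCA was lower in mbd6 by a change of -1.15 (adjusted p = 0.00956), and IVD differed by -0.81 (adjusted p = 0.0726). In the same comparison ALDH6B2 differed by -0.41, as given above.

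In mbd6 1 of the 11 rose and 0 fell (4.0% of all probe sets called higher), with a median of 0.32. This was AT5G38710, listed with the proline and GABA genes, at 4.16, 4.34 and 4.19 in wild type and 5.73, 4.98 and 5.36 in mbd6. The groups did not overlap, and the rise was 1.13 (SE 0.20; adjusted p = 0.00423). In mbd11 it read 5.38, 5.54 and 4.90 and rose by 1.05 (SE 0.20; adjusted p = 0.00147), and in mbd4 it differed by 0.55 (adjusted p = 0.271). This probe set is dim, with a mean of 4.91 over all arrays, and the filter on a mean of at least 5 removed it. Of the 9 listed genes left by that filter, 1 other was called higher in mbd6 (965 of 14371 probe sets called higher). In mbd11 2 of the 9 were called higher (2690 of 14371). In its class of wild-type level, the third, the median mbd11 change was 0.34, 23.6% were called higher, and 5.98% had a change as high or higher. DELTA-OAT, the ornithine aminotransferase of the same group, differed by 0.60 in mbd6 and -0.29 in mbd11 without passing (adjusted p = 0.134 and 0.268). Without mbd11 replicate 2 the mbd6 list count was 4 (13.9% of all probe sets called), and without mbd11 replicate 1 it was 2 (8.05%).

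In mbd11 5 of the 11 were called (40.2% of all probe sets), 3 lower (19.7%) and 2 higher (20.4%), with a median of 0.07. The 3 lower genes were bright. In the class of wild-type level of GAPC2 48.7% were called lower, and in that of PDC2 and ACS 41.1%. Of those classes, 17.6% had a change as low as GAPC2 or lower, 29.7% as PDC2 and 24.0% as ACS. GAPC2, the phosphorylating cytosolic glyceraldehyde-3-phosphate dehydrogenase and counterpart of ALDH11A3, read 13.01, 12.82 and 12.86 in wild type and 11.86, 11.49 and 11.88 in mbd11. It fell by 1.15 on the log2 scale (SE 0.14; adjusted p = 5.62e-05) and differed by -0.03 and -0.01 in mbd4 and mbd6. The pyruvate decarboxylase gene PDC2, whose product makes acetaldehyde, fell by 0.71 (SE 0.15; adjusted p = 0.00289), with 8.86 to 8.95 in wild type and 7.92 to 8.37 in mbd11, and with the 3' minus 5' covariate it did not pass (adjusted p = 0.0784). The acetyl-CoA synthetase gene ACS, which uses the acetate that aldehyde dehydrogenases make, fell by 0.85 (SE 0.25; adjusted p = 0.0175), with mbd11 arrays at 8.20, 7.54 and 8.90. For ACS the adjusted p was 0.0504 when wild-type replicate 2 was left out, 0.0586 without replicate 3 and 0.0949 with only the 6 arrays compared, and without mbd11 replicate 2 the change was -0.52 and passed.

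Beside AT5G38710, MCCB was higher in mbd11, by 0.44 (SE 0.14; adjusted p = 0.0241). In the class of wild-type level of MCCB 14.8% were called higher, and 15.6% had a change as high or higher. With wild-type replicate 1, wild-type replicate 3 or mbd11 replicate 3 left out, MCCB did not pass (0.0802, 0.0811 and 0.05997). It did not pass either with the 3' minus 5' covariate (0.32, adjusted p = 0.209), with only the 6 arrays compared (0.125) or with arrays weighted by genotype (0.123). MCCA and IVD differed there by 0.49 and 0.07 without passing (adjusted p = 0.0606 and 0.794). ALDH6B2 fell in mbd11, while the 4 other measured genes of branched-chain breakdown had changes of 0.07 to 0.49. Of these 4, MCCB alone was called. They lay in dimmer classes of wild-type level, with median mbd11 changes of -0.28 to -0.11, against -0.44 in the class of ALDH6B2. The part of brightness in this gap was not tested. Without wild-type replicate 3 the mbd11 list count was 3 (30.4% of all probe sets called), and without mbd11 replicate 2 it was 8 (44.2%). The other 4 measured genes of the list, AT4G20930, DELTA-OAT, AER and AT1G54870, were not called in any mutant in the main fit.

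**Figure D4:**
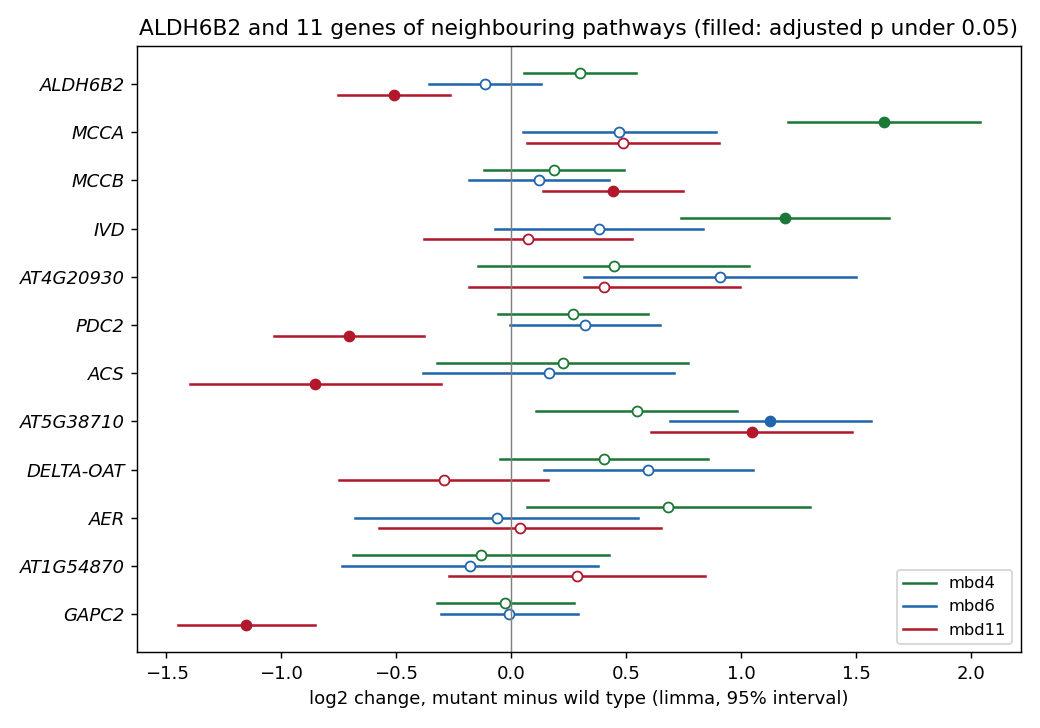
Change of ALDH6B2 and of the 11 measured genes of neighbouring pathways (y axis) in each mutant from wild type (x axis, log2 units, points with 95% intervals from limma); filled points have an adjusted p under 0.05. MCCA at 1.62 and IVD at 1.19 are the filled mbd4 points, and AT5G38710 is filled in mbd6 and mbd11.

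Members were also compared by the shape of their values over arrays, as a description without a test. Over the 9 arrays outside mbd11 the 28 pairs of members had Pearson correlations from -0.62 to 0.81 with a median of -0.04, and 13 were above 0. ALDH2C4 and ALDH7B4 were the most alike there, at 0.81, and ALDH10A8 and ALDH6B2 the least, at -0.62. With mbd11 included all 28 were above 0, from 0.37 to 0.94, with the mbd11 arrays the lowest on average for every member.

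The genes most like each member were the 2 with the highest correlation over all 12 arrays, among probe sets of a single other gene. High values over the 12 arrays follow from that choice. The 9 arrays are part of the 12 and give no separate check. For ALDH7B4 these were AT5G19440 (r = 0.96, and 0.93 over the 9 arrays) and AT1G62730 (0.96 and 0.92). For ALDH6B2 the nearest was AT1G13640 (r = 0.96, and 0.94 over the 9 arrays) and the next AT1G53760 (0.96 and 0.87). For ALDH10A8 they were AT1G74470 (0.98 and 0.88) and AT1G55360 (0.98 and 0.83). For ALDH11A3 they were the IQ-domain gene IQD31 (0.95 and 0.87) and AT4G12770 (0.94 and 0.87).

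The nearest genes of the other members had correlations of 0.66 to 0.84 outside mbd11. For ALDH22A1 they were AT5G19750 (0.98, and 0.66 over the 9 arrays) and the aspartate carbamoyltransferase gene PYRB (0.98 and 0.67), and for ALDH2C4 AT2G25450 (0.98 and 0.74) and the dihydrolipoamide acetyltransferase gene LTA3 (0.98 and 0.71). For ALDH3F1 they were AT5G58100 (0.97 and 0.79) and AT5G54540 (0.97 and 0.82), and for ALDH10A9 AT5G16240 (0.97 and 0.82) and AT1G35660 (0.95 and 0.84). The points of each correlation share arrays and their normalization.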

How the data were processed

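Total RNA of whole seedlings was measured on 12 single-colour Affymetrix arrays. The deposited values are log2 intensities after RMA; the submitters' processing notes name this method and R 2.11. RMA sets all arrays to a common distribution of probe signals before probe sets are summarised, so levels are relative within an array and no change in total RNA can be seen. Array depth has no count here; the 3 replicates per group limit precision. Values were used as deposited, with 64 control probe sets left out. The platform's annotation gave 1 gene for 13513 of the 22746 probe sets, several for 503 and no gene for 8730; symbols came from a RefSeq table of TAIR10.1, which matched 13436 of them, and its coordinates were not used.

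One limma model with a mean per genotype was fitted over all 12 arrays (8 residual and 4.43 prior degrees of freedom), with two-sided p-values adjusted by Benjamini-Hochberg within each of 6 comparisons. The test was tried on simulated data with known changes in mbd6 alone. Each probe set had the same spread in all genotypes there, so the wider spread of mbd11 was not covered. Named are all members, called genes of the pathway list with others of their route, and the 2 genes most correlated with each member. The members and lists were chosen with earlier results of these data known. No source used here gives scan dates. Alternatives were median centring, quantile normalization, only the 6 arrays compared, no mbd11 arrays, genotype weights, an intensity trend, a floor of 4, a mean of at least 5, the 3' minus 5' covariate, a replicate block and leaving out each array. Sequences were not used here. Fits used limma 3.58.1 in R 4.3.3; tables and figures used pandas 2.3.3, numpy 2.4.6 and matplotlib 3.10.9 under Python 3.11.15.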

Additional observations from a re-analysis of the deposited data

How the results depend on the processing

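Counts of called ALDH members in mbd11 (6, beside 19.7% of all 22746 probe sets called lower) were 5 to 7 under the other settings. With arrays weighted by genotype the count was 3 (2945 probe sets called lower), and leaving out single arrays gave 6 to 7 (3614 to 5052). All 8 mbd11 changes stayed below 0 in each of the 21 alternatives, many of which could not move the change itself. In mbd4 the count was 0, beside 2.3% of all probe sets called in either direction. It became 1 with only the 6 arrays compared (8.81%), without the mbd11 arrays (9.72%) and with a floor of 4 (547 of 22746 probe sets). With genotype weights it became 2 (10.5%). In mbd6 the count of 0 (6.91%) became 1 with only the 6 arrays (19.9%), without the mbd11 arrays (18.1%) and with genotype weights (21.5%). Leaving out single arrays gave 0 in both mutants. For mbd6 minus mbd4 the count of 0 (2.05% of all probe sets called) became 1 in 4 settings. These were no mbd11 arrays (2470 of 22746 probe sets called), weights (2463), an intensity trend (571) and the floor (573). Without single arrays it was 0 to 1 (157 to 1638 probe sets called). Counts for mbd11 minus mbd4 (7) and mbd11 minus mbd6 (8) stood beside 19.8% and 19.9% of all probe sets called lower. They were 4 and 4 with weights (11.8% and 12.4%) and 6 and 5 with the 3' minus 5' covariate (17.3% and 15.6%). With quantile normalization they were 5 and 6 (17.2% and 17.4%), and with median centring 6 and 7 (3740 and 3762 of 22746 probe sets). Without single arrays they were 6 to 8 (3493 to 5031 probe sets called lower) and 7 to 8 (3552 to 5042). Median centring moved the median mbd11 change of all probe sets from 0.12 to 0.22. It left 6 members called lower, beside 3938 of 22746 probe sets.

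Pathway counts are given beside the share or number of all 22746 probe sets called in either direction. In mbd4 (2, 2.3%) they were 5 with only the 6 arrays (8.81%), 4 without mbd11 arrays (9.72%) and 4 with weights (10.5%). Without single arrays they were 1 to 3 there (259 to 1464 probe sets). In mbd6 (1, 6.91%) they were 5 (19.9%), 4 (18.1%), 6 (21.5%) and 1 to 4 (807 to 3155 probe sets). In mbd11 (5, 40.2%) they were 3 with only the 6 arrays (22.4%) and 3 with the covariate (6287 probe sets). Without single arrays they were 3 to 8 there (6906 to 10757 probe sets). Signs turned for values near 0: ALDH3F1 in mbd6 with median centring (-0.0013), and, without single arrays, ALDH3F1 in mbd6 (-0.0295 to 0.0535), ALDH22A1 in mbd4 (-0.14 to 0.10) and mbd6 (-0.0419 to 0.21), ALDH11A3 in mbd6 (-0.10 to 0.0073) and ALDH7B4 between mbd6 and mbd4 (-0.25 to 0.0186). The causes were not tested. With the replicate block the ALDH count was 6 in mbd11, beside 4389 of 22746 probe sets called lower. It was 0 in mbd4 and mbd6, beside 435 and 1360 probe sets called in either direction. Same-numbered arrays did not deviate together (median correlation -0.0016, range -0.38 to 0.22 over 18 pairs; 2 of 12 arrays were most like their own number), so the numbers were not taken as pairs. Replicate spread, widest in mbd11, set the precision.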
